A study of Mus musculus with 16 samples.

Results

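The transcripts described here are those of 10 genes by whose proteins, or reporter alleles, mouse hematopoietic stem cells (HSCs) are recognised: *Procr*, *Ly6a*, *Kit*, *Slamf1*, *Cd48*, *Cd34*, *Esam*, *Fgd5*, *Eng* and *Cd27*. They were picked by name among the 46078 genes of the count table, each name stood on a single line, and all 10 were among the 13661 genes that passed the filter on low counts. The 16 samples were wild-type B6.SJL HSCs, sorted by the level of MAC-1, the integrin of CD11B (*Itgam*) and CD18 (*Itgb2*). Untreated steady-state (SS) mice gave 3 MAC-1- and 3 MAC-1low samples. Mice that had received 8000 LSK (lineage-, SCA1+, KIT+) cells 4 weeks earlier, after lethal irradiation with 900 cGy, gave 3 MAC-1-, 4 MAC-1low and 3 MAC-1+ samples, called 4 week HSCs. By the methods of the study, such recipients were of the LY5.2 type and also got LY5.2 support marrow, and the 4 week HSCs were LY5.1 donor cells taken from them. One gate was applied to all 5 populations: LSK, CD48- and CD150+. The proteins of *Kit*, *Ly6a* (SCA1), *Slamf1* (CD150) and *Cd48* were thus used to choose every cell, and their transcripts describe cells already inside that gate. All cells came from bone marrow enriched for KIT, the age of the mice is not given in the sources used here, and no label says whether replicates came from separate mice, so p-values measure only the spread between these samples.

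HSCs carry few proteins that no other cell has, and are therefore recognised by combinations. KIT is the receptor for stem cell factor and SCA1 a membrane-anchored protein of the Ly6 family, and together they mark a mixture of stem cells and early progenitors. CD150 and CD48, both of the SLAM family, divide that mixture: stem cells carry the first and largely lack the second. EPCR, encoded by *Procr*, binds protein C and is a marker of HSCs in mouse marrow and fetal liver, while CD34 and CD27 are used to tell dormant stem cells from more active stem cells and progenitors. ESAM and endoglin (*Eng*) are shared with endothelium, and *Fgd5*, a guanine nucleotide exchange factor inside the cell, is known from reporter mice that label HSCs.

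On GRCm38 (GENCODE M21), *Cd48* (ENSMUSG00000015355) lies at chr1:171682009-171705258 and *Slamf1* (ENSMUSG00000015316) at chr1:171767127-171801184, on the same strand and 61.9 kb apart. *Procr* (ENSMUSG00000027611) lies at chr2:155751117-155755471, *Ly6a* (ENSMUSG00000075602) at chr15:74994877-74998031 and *Kit* (ENSMUSG00000005672) at chr5:75574916-75656722. *Fgd5* (ENSMUSG00000034037) lies at chr6:91978878-92076004 and *Cd27* (ENSMUSG00000030336) at chr6:125232622-125237010. *Cd34* and *Eng* each share exonic bases with a gene of the opposite strand, *Gm16897* and *Fpgs* in that order. *Cd27* shares them with *Mir8113*, a gene of its own strand. Whether reads were counted by strand is not given in the sources used here. A few reads of these pairs may not be told apart, those of *Cd27* and *Mir8113* even with counting by strand. All 10 are protein-coding genes.

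The stretches before the start sites of *Procr*, *Fgd5*, *Kit* and *Cd27*, whose levels correlated over the 16 samples as described further on, and of *Cd48*, which had the lowest correlation with *Kit*, are given 5′ to 3′ from RefSeq (GRCm38.p6), ending where the GENCODE gene or the RefSeq start begins. Capitals mark a match to a motif searched on both strands.
Procr (chr2:155750967-155751116, plus strand): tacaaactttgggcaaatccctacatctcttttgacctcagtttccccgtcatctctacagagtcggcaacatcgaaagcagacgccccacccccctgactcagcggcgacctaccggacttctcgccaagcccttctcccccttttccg
Fgd5 (chr6:91978715-91978877, plus strand): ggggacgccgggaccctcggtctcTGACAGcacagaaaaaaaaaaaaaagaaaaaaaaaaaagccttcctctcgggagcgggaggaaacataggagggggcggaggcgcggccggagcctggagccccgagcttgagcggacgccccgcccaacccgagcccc
Kit (chr5:75574737-75574915, plus strand): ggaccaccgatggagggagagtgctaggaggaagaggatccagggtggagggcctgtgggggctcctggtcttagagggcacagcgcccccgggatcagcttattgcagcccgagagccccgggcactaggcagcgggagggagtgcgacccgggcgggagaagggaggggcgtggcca
Cd27 (chr6:125237028-125237277, minus strand): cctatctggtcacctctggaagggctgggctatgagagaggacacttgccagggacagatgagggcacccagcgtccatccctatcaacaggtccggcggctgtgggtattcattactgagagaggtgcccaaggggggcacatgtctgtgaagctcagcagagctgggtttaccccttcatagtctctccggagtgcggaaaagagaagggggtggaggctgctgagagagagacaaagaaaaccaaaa
Cd48 (chr1:171681742-171681991, plus strand): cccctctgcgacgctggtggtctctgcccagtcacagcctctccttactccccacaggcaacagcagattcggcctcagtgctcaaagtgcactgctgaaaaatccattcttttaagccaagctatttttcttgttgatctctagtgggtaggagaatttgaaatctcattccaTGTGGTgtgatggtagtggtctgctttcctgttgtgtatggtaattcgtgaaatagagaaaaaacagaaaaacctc
RefSeq start regions were at hand for 8 of the 10 genes. The 250 bases before these 8 starts were searched, as were 32851 start regions in all. *Cd48* held the RUNX core TGTGGT 71 bases before its start, as did 4614 of all start regions in their own 250 bases. *Slamf1* held the GATA core TGATAA at 125 bases (7.94% of all), while the GATA core AGATAA (9.99%), which differs in its first letter only, was in none of the 8. *Fgd5* held the MEIS core TGACAG at 221 bases (15.9%), and *Eng* the ETS core GGAAGT at 48 bases on the opposite strand (19.7%). *Procr* held the E-box CAGCTG at 29 bases, within the GENCODE gene and not printed, as did 4271 of all start regions. *Kit*, *Cd34* and *Cd27* held none of these letters. No match overlapped another, and no core was found before more than 1 of the 8 genes.

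The libraries held 13781278 to 28580658 counts, with 14533 to 17576 genes detected and 3.96% to 9.62% of counts from mitochondrial genes. Each had been amplified from a small sort by SMART-Seq, which copies whole transcripts and has no molecular identifiers, and the common biological coefficient of variation was 1.13. Markers of other cells were measured beside the HSC genes, a gene being present in a population if any of its samples had counts. Those of megakaryocytes summed to 4262 to 6752.0 CPM (counts scaled to library size) in 4 week MAC-1- samples, with 8 of 8 genes present, and to 156 to 1124 CPM in every other population, *Gp6* or *Gp1bb* at 0 where 1 gene was missing. Those of neutrophils, 8 of 8 present, summed to 164 to 7304 CPM in 4 week MAC-1+ samples and to 23.1 to 168 CPM elsewhere, with 1 to 3 genes at 0 there. Within 4 week MAC-1+ samples, the lowest value of *Ltf*, *Lcn2*, *Mpo* and *Elane* was 0 CPM each. Of the megakaryocyte genes, *Gp6* reached only 0.0628 CPM in 4 week MAC-1- samples. *Pf4*, *Itga2b*, *Gp9* and *Vwf* of that list are among genes the study selected as high in 4 week MAC-1- HSCs on these same samples. The endothelial list never exceeded 18.9 CPM, with *Cdh5* and *Cldn5* at 0 in 4 week MAC-1- and MAC-1+ samples. Those of erythroblasts summed to 81.9 to 189 CPM in 4 week MAC-1+ and 15.6 to 71.9 CPM in other samples, and those of monocytes and macrophages to 22.2 to 125 CPM in 4 week MAC-1+, 0.188 to 8.49 in 4 week MAC-1- and up to 36.8 CPM in other samples. Over 4 week samples, *Itgam* ran from 0 to 1.78 CPM where MAC-1-, 0.112 to 4.36 where MAC-1low and 3.80 to 30.0 where MAC-1+, while *Itgb2* averaged 26.8, 11.9 and 13.2 CPM in the same order, and neither passed the test between MAC-1+ and MAC-1- (log2 difference 4.54, adjusted p = 0.400, and -1.02, adjusted p = 0.864, in edgeR). In bulk samples, fewer cells of a type and less RNA per cell cannot be told apart.

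Per exon length, as TPM (counts divided by exon length and scaled to a common total), averaged over the 16 samples, *Ly6a* stood far above the other genes at 1029.7 TPM, the 99.5th percentile of 31580 genes with counts. *Cd48* at 92.9, *Kit* at 71.7, *Procr* at 56.0, *Cd27* at 55.2 and *Cd34* at 47.4 TPM formed a middle tier. *Esam* followed at 24.1 and *Slamf1* at 20.6, and *Fgd5* at 7.64 and *Eng* at 5.75 TPM were the lowest, *Eng* at the 74.4th percentile. The transcript of the protein that was selected against, CD48, therefore had a higher mean TPM than that of CD150, which was selected for. The plot of TPM shows that *Cd48* and *Slamf1* also had the widest ranges on its log axis, from 0 to 236 and from 0.0508 to 82.0 TPM, against 28.2 to 120.3 TPM for *Kit*.

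**Figure D1:**
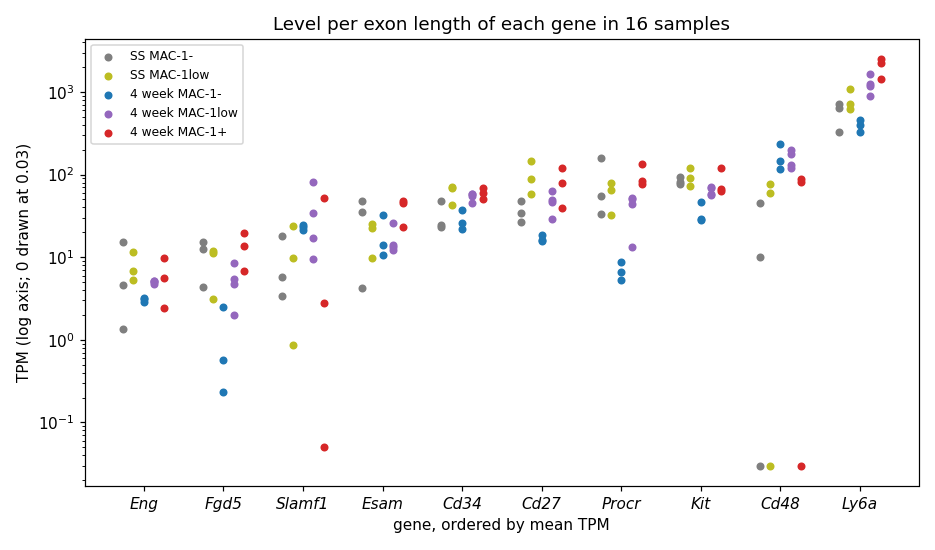
Level of each gene per exon length (TPM, log axis, a value of 0 drawn at 0.03) in the 16 samples, coloured by population. *Ly6a* lies above all others, and 3 samples have *Cd48* at 0 while the rest lie between 9.94 and 236 TPM.

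Of the genes of the positive gate, *Ly6a* was highest in 4 week MAC-1+ HSCs. Its samples there had 1413, 1076 and 690.4 CPM, and those of 4 week MAC-1- HSCs 202, 245 and 265 CPM. The 4 week MAC-1low samples had 635, 878, 638 and 497 CPM, all above the MAC-1- samples and overlapping the MAC-1+ ones. SS MAC-1- samples had 413, 365 and 197 CPM, and SS MAC-1low samples 605, 305 and 370.2 CPM. The means were 1059.9 ± 362 CPM (SD, n = 3) for MAC-1+ and 238 ± 32.0 (n = 3) for MAC-1- HSCs at 4 weeks, and the ranges of these 2 populations did not meet. The difference of 2.16 ± 0.34 (log2, SE), or 4.46-fold, passed the test (adjusted p = 0.00397, edgeR). 4 week MAC-1+ samples also exceeded every SS sample, by 1.71 ± 0.33 against SS MAC-1- (adjusted p = 0.0241) and by 1.31 ± 0.33 against SS MAC-1low HSCs (adjusted p = 0.0967). The last call was lost on leaving out any of 13 of the 16 samples, and held without SS MAC-1- replicate 3, SS MAC-1low replicate 1 or 4 week MAC-1+ replicate 3, with adjusted p from 0.0738 to 0.331. Fitted on only the groups compared, neither contrast with SS HSCs passed (adjusted p = 0.213 and 0.283), and limma-voom did not call the last (0.133).

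*Kit* had its lowest samples in 4 week MAC-1- HSCs, at 133, 215 and 119.6 CPM. All other samples lay above these, the lowest of them at 218 CPM in 4 week MAC-1low replicate 3. The SS populations had 363 ± 37.4 (MAC-1-) and 358 ± 67.7 CPM (MAC-1low, SD, n = 3 each), 4 week MAC-1low HSCs 252 ± 32.1 (n = 4) and 4 week MAC-1+ HSCs 309 ± 103 (n = 3). *Kit* was 1.99-fold higher in 4 week MAC-1+ than in MAC-1- cells at 4 weeks (0.99 ± 0.26, adjusted p = 0.0752) and 2.33-fold lower in 4 week MAC-1- than in their SS counterparts (-1.22 ± 0.27, adjusted p = 0.0927). These comparisons share the 4 week MAC-1- samples. The first call was lost without 4 week MAC-1- replicate 1 (adjusted p = 0.263) or 3 (0.299) or 4 week MAC-1+ replicate 2 (0.277). The second was lost on leaving out any of 11 of the 16 samples, and held without SS MAC-1low replicate 1 or 2, 4 week MAC-1- replicate 2 or 4 week MAC-1+ replicate 2 or 3. Neither passed with only the groups compared (adjusted p = 0.254 and 0.272).

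*Procr* had the largest difference of the 10 genes from 4 week MAC-1- HSCs, in MAC-1low as in MAC-1+ cells. The 4 week MAC-1- samples had 5.59, 6.98 and 8.51 CPM, from 89 to 184 counts. The 4 week MAC-1low samples had 45.5, 46.2, 37.5 and 12.3 CPM, and the 4 week MAC-1+ samples 80.4, 63.3 and 107 CPM. The 3 ranges did not meet, and *Procr* was the only gene of the 10 ordered in this way. SS samples had 32.6, 52.5 and 159 CPM (MAC-1-) and 30.4, 64.3 and 55.9 CPM (MAC-1low), each above every 4 week MAC-1- sample. *Procr* was 11.9-fold higher in 4 week MAC-1+ than in MAC-1- cells at 4 weeks (3.57 ± 0.66, adjusted p = 0.0109) and 11.6-fold lower in 4 week MAC-1- than in their SS counterparts (-3.53 ± 0.66, adjusted p = 0.05). The first call held on leaving out each of the 16 samples in turn, with adjusted p from 0.00517 to 0.0619. The second was lost without SS MAC-1- replicate 3 (-2.60, adjusted p = 0.129) or 4 week MAC-1- replicate 1 (0.263), 2 (0.184) or 3 (0.158), with limma-voom (0.192) and with only the groups compared (0.266). The difference of 4 week MAC-1+ from SS MAC-1- HSCs was 0.04, with a 95% interval from -1.23 to 1.30.

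The pair of SLAM genes, *Slamf1* and *Cd48*, behaved unlike the rest, since single samples ranged from 0 to 2853 counts of *Cd48* and from 2 to 3665 of *Slamf1*. *Cd48* had 0, 487 and 115 counts in SS MAC-1-, then 808, 514 and 0 in SS MAC-1low, 1142, 2371 and 2209 in 4 week MAC-1-, 1116, 2034, 1172 and 2853 in 4 week MAC-1low, and 957, 0 and 1045 in 4 week MAC-1+ samples. All 7 4 week samples that were MAC-1- or MAC-1low lay above all 9 others. A count of 0 allows up to 3 counts, or 0.220, 0.155 and 0.188 CPM in these 3 samples, counting error only. Among the 3495 genes with a mean of at least 1000 counts, 35 (1.00%) had a sample at 0 and 6 had at least 3, *Cd48* (mean 1051 counts) one of them.

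The means of *Cd48* were 98.3 ± 31.7 CPM (SD, n = 3) for 4 week MAC-1-, 82.2 ± 21.7 (n = 4) for 4 week MAC-1low, and, with 3 samples each, 28.9 ± 25.1 for 4 week MAC-1+, 23.6 ± 21.5 for SS MAC-1low and 10.5 ± 13.4 for SS MAC-1- HSCs. The fitted differences were wide and none passed the test. 4 week MAC-1- exceeded SS MAC-1- HSCs by 3.23 ± 1.91 (adjusted p = 0.576) and 4 week MAC-1+ lay below 4 week MAC-1- HSCs by -1.76 ± 1.80 (95% interval -5.60 to 2.08, adjusted p = 0.783). The last value was -1.16 without 4 week MAC-1+ replicate 2, the sample at 0, and -4.38 in limma-voom.

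*Slamf1* had 732, 317 and 202 counts in SS MAC-1-, then 47, 1067 and 493 in SS MAC-1low, 1093, 1951 and 1178 in 4 week MAC-1-, 3665, 1016, 1704 and 712 in 4 week MAC-1low, and 168, 2 and 3260 in 4 week MAC-1+ samples. Only the 4 week MAC-1- samples were close to each other, at 71.2 ± 2.68 CPM (SD, n = 3), while 4 week MAC-1+ samples had 7.98, 0.126 and 129 CPM. The difference of 4 week MAC-1+ from 4 week MAC-1- HSCs was -0.64 (95% interval -3.62 to 2.34, adjusted p = 0.936), and it was -4.11 without 4 week MAC-1+ replicate 3, -0.02 without replicate 2 and -3.26 in limma-voom. 4 week MAC-1+ replicate 2 was the lowest sample for *Slamf1* and also at 0 for *Cd48*, although it held 17136 counts of *Ly6a* and 6787 of *Kit*. The other samples at 0 for *Cd48* had 732 and 493 counts of *Slamf1*. The plot of both counts shows no sample in which *Cd48* was detected at under 115 counts. The rest of the SLAM family was scarce: the summed level of *Ly9*, *Cd244*, *Slamf6*, *Slamf7*, *Slamf8* and *Slamf9* did not exceed 24.4 CPM in any sample.

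**Figure D2:**
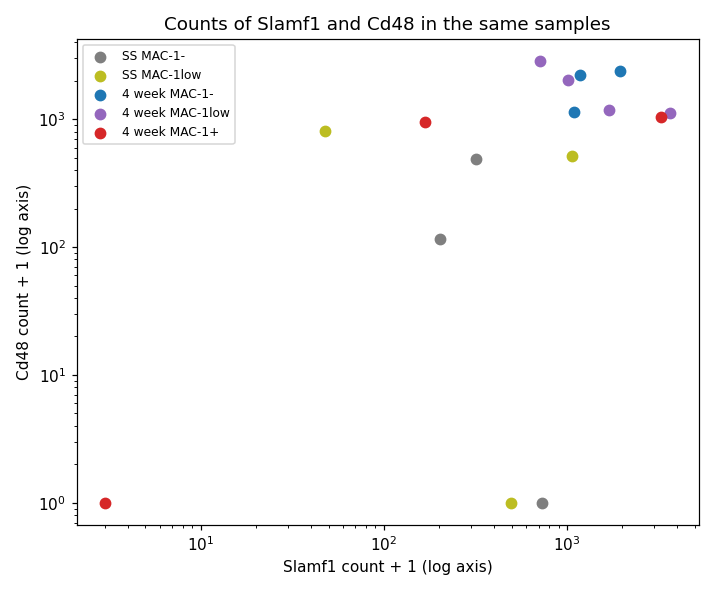
Counts of *Slamf1* and *Cd48* in the same sample, each plus 1 on log axes, coloured by population. 3 samples lie at 0 for *Cd48*, and 1 of them, 4 week MAC-1+ replicate 2, has 2 counts of *Slamf1*.

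*Cd27*, a receptor of the TNF receptor family, was the fourth gene higher in 4 week MAC-1+ HSCs, with 43.2, 74.7 and 111 CPM against 22.5, 19.5 and 17.4 in 4 week MAC-1- samples. The 4 week MAC-1low samples had 30.2, 65.8, 48.7 and 49.7 CPM. The 4 week MAC-1- range met no other population's range. The difference was 3.86-fold (1.95 ± 0.46, adjusted p = 0.0418), and the call was lost without 4 week MAC-1- replicate 1 (adjusted p = 0.117), 2 (0.157) or 3 (0.169) or 4 week MAC-1+ replicate 3 (0.171), without a filter (0.108) and with only the groups compared (0.131). *Cd27* was also the gene with the largest difference at steady state. SS MAC-1low samples had 62.5, 137 and 88.6 CPM and SS MAC-1- samples 29.5, 37.2 and 55.4 CPM, without overlap (1.24 ± 0.45, adjusted p = 0.513 in edgeR and 0.0447 in DESeq2).

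*Fgd5* was lowest in 4 week MAC-1- HSCs, with 0.753, 7.96 and 1.69 CPM, from 12, 210 and 28 counts. In 4 week MAC-1+ samples it had 19.9, 49.2 and 34.0 CPM, and in 4 week MAC-1low samples 15.1, 23.6, 12.5 and 5.77 CPM, the last of these within the 4 week MAC-1- range. SS samples had 13.1, 45.3 and 39.5 CPM (MAC-1-) and 9.13, 28.2 and 32.1 CPM (MAC-1low). The difference of 4 week MAC-1+ from 4 week MAC-1- HSCs was 3.30 ± 0.95 (95% interval 1.28 to 5.33) and just missed the threshold (adjusted p = 0.104). It passed with DESeq2 (adjusted p = 0.000860) and limma-voom (0.0526), and without 4 week MAC-1- replicate 2 (4.81, adjusted p = 0.0559), the highest of its group. In alternatives with all samples of both groups, its adjusted p was up to 0.23. On leaving out each of the 16 samples in turn, it ran from 0.0559 to 0.341, with differences of 2.83 to 4.81. In 15 of these fits it did not pass.

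*Cd34*, a sialomucin, had 172, 201 and 173 CPM in 4 week MAC-1+ and 140.0, 97.6 and 76.6 CPM in 4 week MAC-1- samples. These groups did not overlap, but the difference of 0.80 ± 0.33 did not pass the test (adjusted p = 0.297 in edgeR and 0.0876 in DESeq2). Its highest mean was 193 ± 57.6 CPM in SS MAC-1low HSCs (SD, n = 3), against 112 ± 52.4 in SS MAC-1- HSCs. Values for *Esam*, a junctional adhesion molecule, overlapped in all 8 comparisons. It ran from 6.10 to 63.9 CPM within SS MAC-1- samples alone, and 4 week MAC-1+ differed from 4 week MAC-1- HSCs by 0.78 ± 0.73 (95% interval -0.78 to 2.35, adjusted p = 0.750). *Eng*, a co-receptor for TGF-beta ligands, was tight at 4 weeks in MAC-1- (6.23 ± 0.256 CPM, SD, n = 3) and MAC-1low HSCs (8.91 ± 0.326, n = 4) and loose elsewhere, from 2.64 to 29.1 CPM in SS MAC-1- samples. Its difference of 4 week MAC-1+ from 4 week MAC-1- HSCs was 0.70 ± 0.93 (95% interval -1.27 to 2.67, adjusted p = 0.857).

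**Figure D3:**
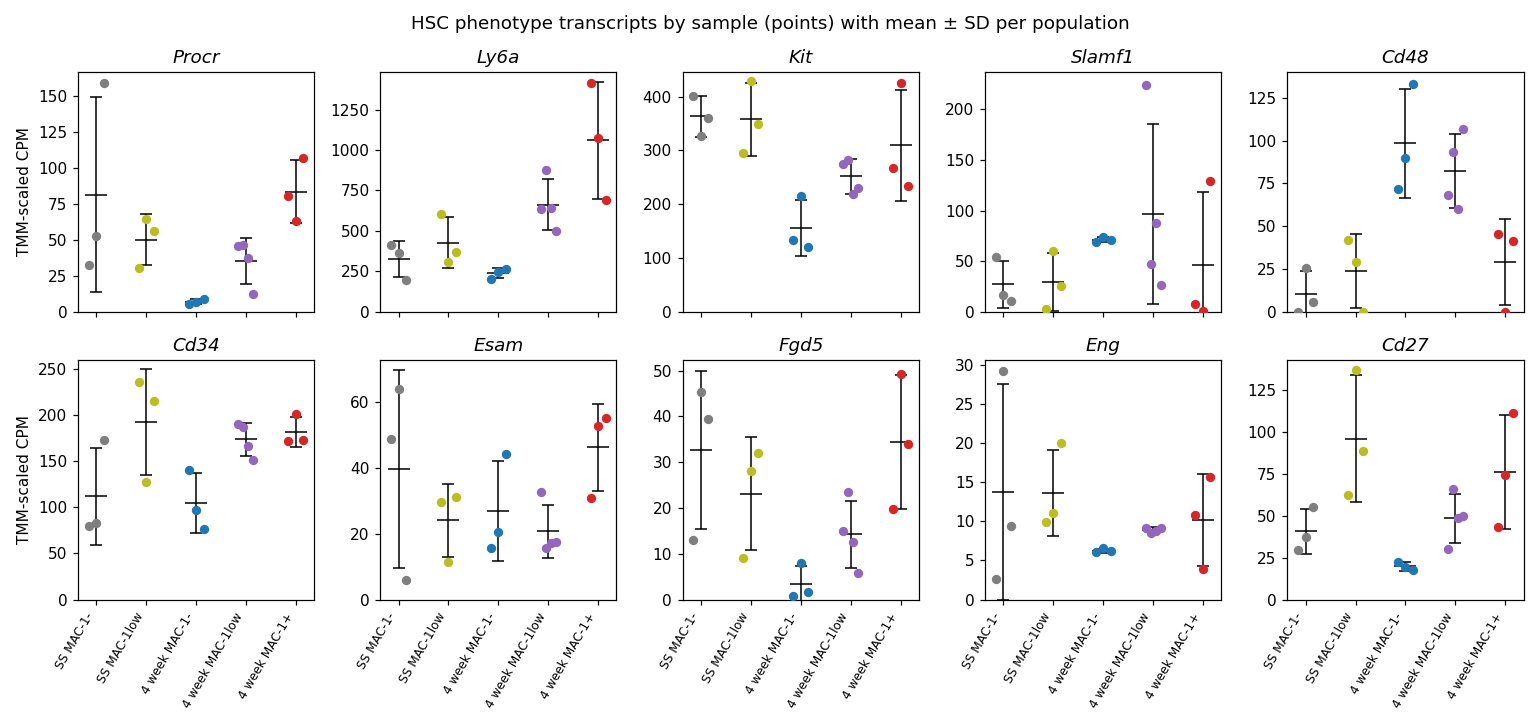
CPM of each gene in each sample (points), with mean and SD of the population (bars, ending at 0 where they would pass it), linear axes from 0. 4 week MAC-1- HSCs have the lowest mean for 7 of the 10 genes and 4 week MAC-1+ HSCs the highest for 4.

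Over the 10 genes, 4 week MAC-1- HSCs had the lowest mean CPM for 7, the others being *Slamf1*, *Cd48* and *Esam*, and 4 week MAC-1+ HSCs had the highest for *Procr*, *Ly6a*, *Esam* and *Fgd5*. Most steps in these orders were within the spread: of 40 neighbouring pairs of populations, 35 overlapped. The 5 that did not were the step up from 4 week MAC-1- for *Procr*, *Kit*, *Eng* and *Cd27*, and that from 4 week MAC-1+ to MAC-1low for *Cd48*. Such orders and steps were not counted over all genes tested, so these counts have no background to be set against. Summed over the 10 genes, samples had 666 to 783 CPM in 4 week MAC-1-, 1107 to 1648 in 4 week MAC-1low, 1591 to 2091 in 4 week MAC-1+, 1016 to 1075 in SS MAC-1- and 1188 to 1322 in SS MAC-1low HSCs, a sum in which *Ly6a* and *Kit* weigh most.

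When 4 week MAC-1+ HSCs were set against MAC-1- ones, 4 of the 10 genes passed the test, all higher in MAC-1+ (*Procr*, *Ly6a*, *Cd27* and *Kit*), where 3.25% of all genes tested passed in either direction and 1.19% as higher. *Procr*, *Ly6a*, *Kit* and *Fgd5* are among genes the study selected on these same samples, so their direction is not independent evidence, while *Cd27* is not. DESeq2 called 6 and limma-voom 5, all higher, where they called 1591 (808 higher) and 891 (409 higher) of all genes. In the other comparisons, calls of DESeq2 and limma-voom over all genes were not counted. The median log2 difference of the 10 was 0.89, beside 0.07 over all genes tested, and 8 of 10 were above 0, all but *Slamf1* and *Cd48*. Without overlap, 6 were higher (10.2% of all genes) and 1, *Cd48*, was lower (11.5%). Megakaryocyte markers were 4262 to 6752.0 CPM in 4 week MAC-1- and 156 to 204 CPM in 4 week MAC-1+ samples, where neutrophil markers reached 7304 CPM. The direction of the megakaryocyte markers is not independent evidence either, since the study selected *Pf4*, *Itga2b*, *Gp9* and *Vwf* on these samples. Erythroblast markers were 15.6 to 25.6 CPM in MAC-1- and 81.9 to 189 CPM in MAC-1+ samples (5 and 6 of 7 genes present, *Slc4a1* at 0 in both), and monocyte and macrophage markers 0.188 to 8.49 and 22.2 to 125 CPM (3 and 6 of 7 genes present, *Ccr2* at 0 in MAC-1- and *Csf1r* in MAC-1+). Of 4 erythroblast genes tested, 1 was called, *Hbb-bt* (log2 difference 2.99, adjusted p = 0.00413 in edgeR). Of the 4, 2 were above 0, while *Hbb-bs* (-0.03) and *Epor* (-1.565) were below 0 without passing. The part of any of these marker lists in the differences was not tested.

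**Figure D4:**
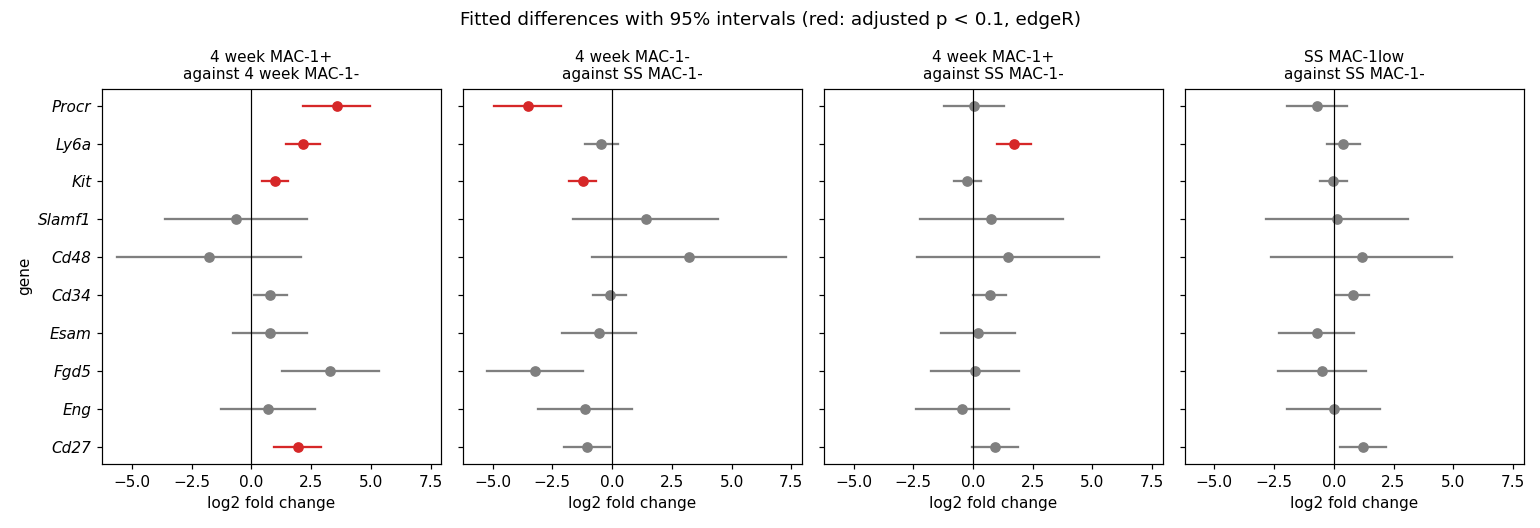
Fitted log2 fold change with 95% interval of each gene in 4 comparisons, red where the adjusted p was below 0.1 in edgeR. 4, 2, 1 and 0 of the 10 genes are red from left to right, and the intervals of *Slamf1* and *Cd48* are the widest.

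For 4 week MAC-1low against 4 week MAC-1- HSCs, edgeR called 0 of the 10 (0.278% of all genes). DESeq2 called 3 and limma-voom 1, without a count over all genes. In edgeR, 6 of the 10 had an unadjusted p under 0.05, as did 7.25% of all genes. *Procr* differed most, by 2.33 ± 0.60 (adjusted p = 0.249 in edgeR and 0.00151 in DESeq2). *Ly6a* differed by 1.48 ± 0.32 (adjusted p = 0.101). Nevertheless 6 genes were higher without overlap (5.23% of all genes), *Procr*, *Ly6a*, *Kit*, *Cd34*, *Eng* and *Cd27*. For 4 week MAC-1+ against 4 week MAC-1low HSCs, edgeR, DESeq2 and limma-voom each called 0 of the 10 (0% of all genes in edgeR). In edgeR, 2 of the 10 had an unadjusted p below 0.05, as did 6.85% of all genes. There *Procr* was higher without overlap (3.75% of all genes) and *Cd48* lower (4.48%), the latter with the largest difference, -1.51 ± 1.71 (adjusted p = 1), or -0.92 without 4 week MAC-1+ replicate 2.

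At steady state, MAC-1low and MAC-1- HSCs had 0 of the 10 called by edgeR (0.0146% of all genes) and 0 in limma-voom. In edgeR, 2 of the 10 had an unadjusted p below 0.05, as did 9.36% of all genes. *Cd27* was the 1 gene DESeq2 called, and the 1 without overlap (5.95% of all genes). *Procr* differed by -0.70 ± 0.60 (95% interval -1.97 to 0.57) and *Kit* by -0.02 ± 0.26 (-0.58 to 0.54). Whether the MAC-1low against MAC-1- difference itself differed between 4 week and SS HSCs was tested as an interaction. There 0 of 10 were called in edgeR (0.0586% of all genes) and 0 in limma-voom. In edgeR, 2 of the 10 fell under an unadjusted p of 0.05, as did 8.73% of all genes. DESeq2 called *Procr* (adjusted p = 0.00834), whose interaction was 3.03 ± 0.84 (adjusted p = 0.379 in edgeR) and 2.10 without SS MAC-1- replicate 3, or 2.37 in limma-voom.

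SS and 4 week HSCs were compared within each MAC-1 level. They differed at once in transplantation, an irradiated host and support marrow, which cannot be told apart here. In MAC-1- HSCs, *Procr* and *Kit* were lower at 4 weeks than at steady state, 2 of 10 (0.432% of all genes tested in either direction, 0.22% as lower). DESeq2 called 3 lower and limma-voom 1, without a count over all genes. Without overlap, *Slamf1* and *Cd48* were higher (9.24% of all genes) and *Procr*, *Kit*, *Fgd5* and *Cd27* lower (7.4%). Megakaryocyte markers were 595 to 1124 CPM in SS MAC-1- samples and 4262 to 6752.0 CPM in 4 week MAC-1- samples, and their part was not tested. In MAC-1low HSCs, edgeR, DESeq2 and limma-voom called 0 of 10 (0.0439% of all genes in edgeR). In edgeR, 1 of the 10 had an unadjusted p below 0.05, as did 8.89% of all genes. *Cd48* was higher without overlap (5.44%) and differed most, by 1.80 ± 1.73 (adjusted p = 0.892, 1.19 without SS MAC-1low replicate 3 and 2.50 without replicate 1), and *Kit* and *Eng* were lower without overlap (4.98%). For 4 week MAC-1+ HSCs, *Ly6a* was the single gene called against SS MAC-1- (2.36% of all genes in either direction, 0.776% as higher) and against SS MAC-1low HSCs (1.42%, 0.586% as higher), and also the single one without overlap in each (8.36% and 7.71% as higher). The comparisons with 4 week MAC-1+ HSCs share these samples.

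Genes of the same circuits were counted in the same contrast, 4 week MAC-1+ against MAC-1-. Over all genes tested, 3.25% passed in either direction and 1.19% as higher, with a median of 0.07. Of 18 other HSC genes, 17 were tested, 3 were higher, 0 were lower and 14 did not pass, with a median of 0.83. DESeq2 called 4 higher and 3 lower, and limma-voom 5 higher and 2 lower. The first was *Hlf*, a transcription factor of HSC self-renewal, at 499 to 909 CPM against 56.7 to 87.2 CPM (3.32 ± 0.45, adjusted p = 0.00171). The second was *Mecom*, which encodes EVI1, at 181 to 475 against 63.1 to 82.5 CPM (2.19 ± 0.31, adjusted p = 0.00187), and the third *Cd82*, a tetraspanin, with a mean of 9.65 against 0.0253 CPM (adjusted p = 0.0909). *Hlf* and *Mecom* are also among the genes the study selected on these samples. Of 14 surface genes of progenitors, 10 were tested: *Cd24a*, encoding heat stable antigen, was higher (1.25 ± 0.24, adjusted p = 0.0125), *Itga2b*, the integrin subunit CD41 of megakaryocytes and some HSCs, was lower (-3.71 ± 0.71, adjusted p = 0.0125), 8 did not pass, and the median was 1.74. *Itga2b* is likewise among the genes the study selected on these samples, so its direction is not independent evidence.

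Of 13 binding partners of the 10 proteins, 7 were tested, with a median of 1.84, beside 0.07 over all genes tested. *F2r*, encoding the thrombin receptor PAR1 through which EPCR-bound activated protein C signals, was lower at 48.0 to 75.9 against 130.4 to 214 CPM (-1.38 ± 0.35, adjusted p = 0.0571), 0 were higher and 6 did not pass in edgeR. DESeq2 called 3 higher and 2 lower, and limma-voom 2 higher and 1 lower. *Kitl*, the ligand of KIT, averaged 0 to 3.60 CPM over the populations, and *Proc* had counts in 1 of the 16 samples. *Ly6e*, a relative of *Ly6a*, averaged 605 to 773 CPM over the populations, and the difference of 4 week MAC-1+ from 4 week MAC-1- HSCs was 0.13 ± 0.24 (adjusted p = 0.917). *Ly6c1*, the other relative tested of 8 listed, differed by 2.61 ± 2.46 (adjusted p = 0.753), with means of 17.9 and 2.92 CPM. *Ly6c2*, not tested, had 0 to 108 CPM in 4 week MAC-1+ and 0 CPM in 4 week MAC-1- samples.

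How far the 10 genes varied together is given as a description over the 16 samples, which share a protocol and fall into 5 populations, so that differences between populations enter each coefficient. The pairs with the highest Pearson r of log2 CPM were *Procr* with *Fgd5* (0.88), *Kit* with *Fgd5* (0.84), *Procr* with *Kit* (0.72) and *Procr* with *Cd27* (0.71). After the mean of each population was taken out, r was 0.56, 0.59, 0.04 and 0.39. *Kit* and *Cd48* had the lowest, -0.64, and -0.47 within populations. With *Procr*, *Fgd5* and *Cd27*, *Cd48* had -0.36, -0.44 and -0.27, but 0.20, -0.09 and 0.09 within populations. *Slamf1* and *Cd48* had 0.46, and 0.27 within populations.

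Among 11054 other genes with a mean of at least 50 scaled counts, those most like *Procr* were *Tnfaip8* (r = 0.855), *Mllt4* (0.84) and *Basp1* (0.83). *Ly6a* was most like *Shisa5* (0.87), *Parp9* (0.86) and *Fam134b* (0.86), and *Kit* most like *Gm2830* (0.90), *C030037D09Rik* (0.885) and *Ifitm1* (0.87). *Cd27* was most like *Txnip* (0.83), *Arid4a* (0.83) and *Gimap1os* (0.81), and *Fgd5* most like *Gm8292* (0.87), *Myo1f* (0.855) and *Rnf216* (0.85). For *Slamf1* these were *Psmd13* (0.88), *Ccdc132* (0.85) and *Shmt1* (0.85), and for *Cd48* *Slc30a1* (0.84), *Aen* (0.83) and *Mtbp* (0.805). *Cd34* was most like *Acer2* (0.89), *Eng* most like *Rtcb* (0.87) and *Esam* most like *Cdc34* (0.80), the lowest leading value of the 10.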

How the data were processed

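The authors sorted HSCs, amplified their RNA with SMART-Seq v4, made Nextera XT libraries and sequenced them on a NextSeq. They deposited raw counts of reads per gene, from STAR alignments within the RNA-seq pipeline of nf-core (version 1.4.2). Which program counted the reads, on which build and annotation, is not given in the sources used here. GENCODE M21 (GRCm38) held 98.2% of the identifiers and gave the positions and the exon lengths behind TPM.

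These counts went into edgeR 4.0.16 under R 4.3.3 (TMM factors, its default filter on low counts and robust quasi-likelihood test), with all 16 samples in 1 model and a mean per population. Every adjusted p is a Benjamini-Hochberg value, from edgeR where no tool is named, and a gene was called below 0.1. In the main fit it is taken over all 13661 genes tested. DESeq2, fits with another filter and fits on fewer samples adjusted over their own sets of genes. SE is the log2 difference divided by the square root of F. CPM use TMM factors (prior count of 2 on the log2 scale). DESeq2 1.42.0, limma-voom (limma 3.58.1) with sample weights, DESeq2 size factors, no filter, a stricter filter (50 counts in 3 samples), only the groups compared, a replicate block and leaving out each sample were alternatives. A block of consecutive numbers in the sample descriptions was added after the data were seen. Replicate pairs differed by more than sampling noise (chi-square per degree of freedom 120 to 291).

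The genes, lists and tests were chosen with earlier results of these data known. All 10 genes are named in every sample. Other genes are named where a listed gene passed the threshold, where a family's level is described, and as the 3 genes most like a member. Protein sequences were not used here.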

Additional observations from a re-analysis of the deposited data

Results flagged for a closer look

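In 4 week MAC-1low HSCs, the only population with 4 samples, the lowest *Procr* sample and the highest *Esam* sample stood apart from the others. *Procr* in replicate 4 had 12.3 CPM, below 37.5 to 46.2 CPM in the other samples. Taken on log2 CPM (3.63 against 5.23 to 5.53) and not on CPM, its gap was 0.843 of the whole range. That is above Dixon's 95% critical value for 4 samples. *Esam* in replicate 1 had 32.8 CPM, above 15.6 to 17.5 CPM in the others, with a gap of 0.846 of the range of log2 CPM. Chance passes this value in about 5% of groups, and 10 genes were looked at.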

How the results depend on the processing

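Of 451 alternative values of differences of the named genes, none changed sign, 47 lost and 10 gained the call. When 4 week MAC-1+ HSCs were set against MAC-1- ones, 4 of the 10 genes were called, 2 with only the groups compared, and 2 to 4 on leaving out 1 sample, 2 without 4 week MAC-1- replicate 1 or 3. For 4 week MAC-1low against 4 week MAC-1- HSCs the count of 0 became 3 with DESeq2 and 1 with limma-voom, DESeq2 size factors, no filter, the stricter filter or only the groups compared, and 0 to 1 leaving out samples (1 without SS MAC-1- replicate 3, SS MAC-1low replicate 1 or 4 week MAC-1+ replicate 1 or 3). DESeq2 called 1 in SS MAC-1low against SS MAC-1- HSCs and 1 in the interaction, where edgeR called 0. In MAC-1- HSCs, 4 week against SS, the 2 calls became 1 with limma-voom and 0 with only the groups compared, and 0 to 2 leaving out samples, 0 without SS MAC-1- replicate 3 or 4 week MAC-1- replicate 1 or 3. The single call of 4 week MAC-1+ against SS MAC-1- HSCs became 0 with only the groups compared, and that against SS MAC-1low HSCs became 0 with limma-voom, only the groups compared and the replicate block, and 0 to 1 leaving out samples.

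Other HSC genes called went from 3 higher to 7 with DESeq2 (4 higher, 3 lower) and 7 with limma-voom (5, 2). Leaving out samples gave 2 to 5, with 5 without SS MAC-1- replicate 3. The count was 2 without any SS MAC-1low, 4 week MAC-1- or 4 week MAC-1low sample, or without 4 week MAC-1+ replicate 2 or 3. Progenitor genes went from 2 to 4 with DESeq2 and 1 without a filter (2 to 3). Binding partners went from 1 lower to 5 with DESeq2 (3 higher, 2 lower), 3 with limma-voom (2, 1), 2 without a filter and 0 with only the groups compared (0 to 2, 0 without 4 week MAC-1- replicate 2 or 3 or 4 week MAC-1+ replicate 1 or 2, 2 without SS MAC-1- replicate 1, SS MAC-1low replicate 3 or 4 week MAC-1low replicate 1). All genes called went from 444 (162 higher, 282 lower) to 1591 (808, 783) with DESeq2, 891 (409, 482) with limma-voom and 154 (68, 86) with only the groups compared, and 224 to 449 leaving out samples, at 256 or fewer without any 4 week MAC-1- replicate or 4 week MAC-1+ replicate 2 or 3. The cause was not tested, except that fewer samples enter with only the groups compared or 1 left out. DESeq2 and the fits on fewer samples also adjusted over their own sets of genes.

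No label says what a replicate number shares, and deviations of 12 same-numbered pairs correlated at only -0.001 to 0.040, so the numbers were not taken to pair the samples, although 11 of 16 samples correlated best with their own number. With the replicate block, *Ly6a* in 4 week MAC-1+ against SS MAC-1low HSCs had an adjusted p of 0.122, and the block gave 0 calls there, while *Fgd5* in 4 week MAC-1+ against MAC-1- HSCs passed with it (0.0468), as with DESeq2 size factors (0.0996) and the stricter filter (0.0951). Runs of consecutive numbers in the sample descriptions group some 4 week samples differently. Their 11 pairs correlated at -0.011 to 0.040, and 11 of 16 samples correlated best within their run. How many samples would do so without any pairing was not worked out for either numbering. These counts therefore do not settle whether samples are paired. A replicate block by these runs, added after seeing the data and possible only within SS or within 4 week samples and for the interaction, left 2 of the 10 genes called in 4 week MAC-1+ against MAC-1- HSCs, *Procr* (adjusted p = 0.0830) and *Ly6a* (0.0347), with *Kit* at 0.409 and *Cd27* at 0.198, and 254 of all genes (85 higher, 169 lower). Small sorts limit what low counts show: of genes with a mean of at least 100 counts, 20.8% still had a sample at 0.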
